A study of Mus musculus with 12 samples.

Results

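The genes described here were those that set whether a lymphocyte leaves the resting state: the D cyclins Ccnd1, Ccnd2 and Ccnd3, their kinases Cdk4 and Cdk6, the inhibitors Cdkn2c, Cdkn2d, Cdkn1a and Cdkn1b, and their substrate Rb1. The members were taken by gene symbol from the expression table, and all 10 were found among its 41128 genes, each once. Strand-specific total RNA sequencing, with ribosomal RNA removed, was carried out on splenic lymphocytes of 6 to 8 week old C57BL/6J mice, and no treatment or transgene is recorded. The 12 libraries form 4 groups of 3, namely CD43- resting B cells of females (female B cell 1 to 3) and of males (male B cell 1 to 3), and naive CD4+ T cells of females (female T cell 4 to 6) and of males (male T cell 4 to 6). T cells were enriched on magnetic columns as CD4+ CD62L+ cells and then sorted as CD62L high, CD44 low and CD25-. The design text of the series speaks of pooled male and female replicates, so 1 library may hold cells of more than 1 mouse. The paper describes the replicates of its methylation data, made from the same cell populations, as pools of several mice. The SDs given below are spreads between libraries.

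The D cyclins bind and activate CDK4 or CDK6, and the complexes phosphorylate the retinoblastoma protein Rb1, which otherwise holds E2F transcription factors in check at the genes of DNA synthesis. The INK4 inhibitors, p18 from Cdkn2c and p19 from Cdkn2d, bind the kinases and keep the cyclins off, whereas the CIP/KIP inhibitors, p21 from Cdkn1a and p27 from Cdkn1b, act on assembled cyclin and kinase complexes, above all those of CDK2. Resting lymphocytes are known for high p27, and mouse lymphocytes are known to rely on cyclins D2 and D3 and on CDK6 for their expansion.

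Values are adjusted TPM, read here as transcript abundances corrected for gene length and then rescaled between libraries. How the submitters adjusted them is not stated, and comparisons of level between genes rest on this reading. Sequencing depth is unknown, and library totals lay between 561020 (female B cell 3) and 1453940 (male T cell 6), with 11.4% to 37.4% of a total taken by the small nuclear RNA gene Rn7sk or by Yam1. Of the B cell markers, Cd79a was 417 to 573 in B cells against 0.571 to 1.58 in T cells, Cd79b 884 to 1115 against 0.235 to 2.0, Ms4a1 732 to 852 against 0.0900 to 1.33, and Pax5 128 to 166 against at most 0.00218. The T cell markers Cd3d, Cd3e, Cd4, Lck and Tcf7 summed to 9.76 to 14.1 in B cells and 1017 to 1194 in T cells. Most of the B cell sum was Lck, at 8.94 to 13.4. In B cells Cd3d was at most 0.263, Cd3e at most 0.0790, Cd4 at most 0.00594 and Tcf7 at most 0.764. In bulk RNA, fewer cells of a type and less RNA per cell cannot be told apart. The T cell libraries numbered 6, 1 of each sex, stood apart in markers of regulatory T cells, which depletion and the CD25 sort should remove. Foxp3 was 2.57 and 1.82 in them against 0.440 to 0.735 in the other 4 T cell libraries, and Il2ra was 5.0 and 4.11 against 0.158 to 0.340. Cd44, the remaining marker of the list of 5 beside Ikzf2 and Ctla4, did not follow, at 9.86 and 5.89 against 7.36 to 10.7. Results are therefore also given without both.

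Fold changes are differences of log2(adjusted TPM + 1), B minus T cells, with the standard error (SE) and the p-value of limma adjusted by the Benjamini-Hochberg method over the 12520 genes that reached a value of 1 in at least 3 libraries. The fit took all libraries as independent, although same-numbered T cell libraries deviated together. Of the 10 members 9 passed this filter and Cdkn1a did not. Ccnd1 passed only through its B cell libraries, with 1 T cell library at or above 1, so its difference is given as a description. Of the other 8, 7 differed between the cell types at an adjusted p under 0.05, beside 73.0% of all genes tested. Shares of all genes, here and below, also count genes that passed the filter through 1 cell type only. Cdk6, Cdkn2c and Rb1 were higher in B cells, beside 31.4% of all genes, and Ccnd2, Ccnd3, Cdkn2d and Cdkn1b were higher in T cells, beside 41.6%. For each of these 7, and for Ccnd1, no B cell value fell within the range of the T cell values, and the deposited intervals around the values were likewise separate. Of all genes tested, 53.9% did not overlap in value. The median absolute log2 fold change was 0.87 over these 8 members and 0.40 over all genes. At an added absolute log2 fold change of at least 1, the calls kept were Ccnd2, Cdk6 and Cdkn2d, 3 of 8, beside 21.6% of all genes, and Cdkn2d fell under 1 in size in some alternatives (-0.68 at the nearest to 0).

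**Figure D1:**
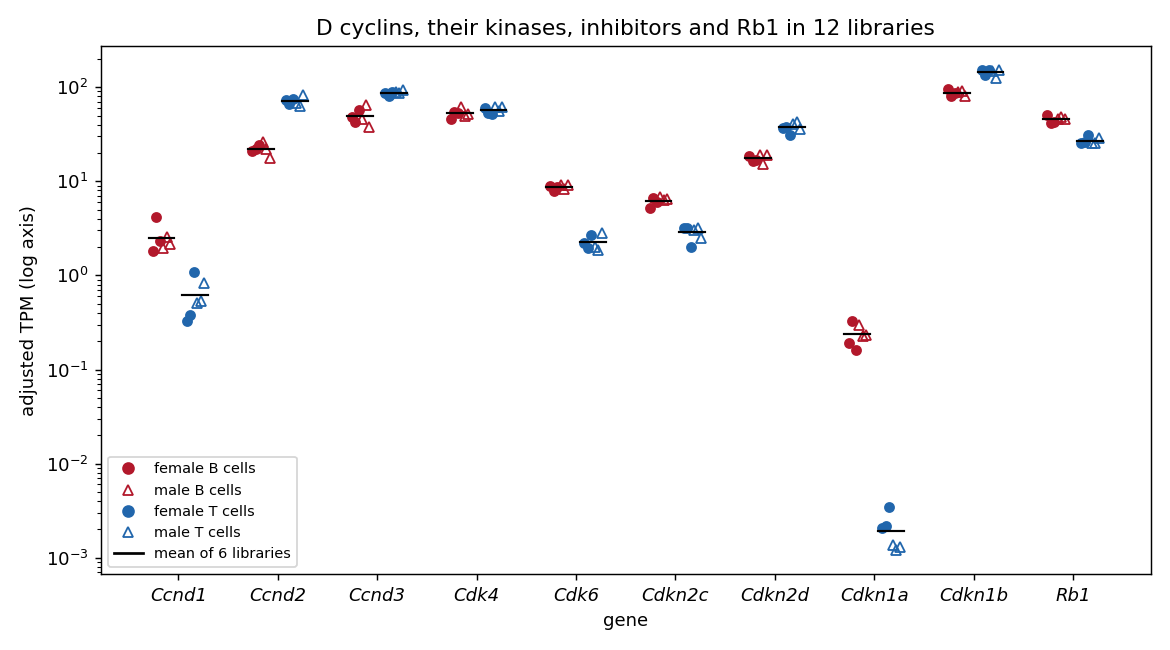
Adjusted TPM (log axis) of the 10 members in each of the 12 libraries, with B cells in red and T cells in blue, filled circles for females, open triangles for males and a black line at the mean of 6 libraries. Cdkn1b stood highest in both cell types, with means of 87.2 in B and 144 in T cells, and only Cdk4 had overlapping B and T cell values.

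Cyclin D2 RNA was far higher in T cells. Ccnd2 (ENSMUSG00000000184.9, chr6:127125162-127152193, minus strand, mm10) stood at 21.1, 22.1 and 24.2 adjusted TPM in female B cells and 26.1, 22.1 and 17.8 in male B cells. In T cells it stood at 73.2, 66.7 and 74.0 in females and 68.1, 62.9 and 82.9 in males. Every T cell library thus lay above every B cell library, and the T cell mean was 3.20 times the B cell mean (log2 fold change -1.64, SE 0.09, adjusted p = 3.21e-09).

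Cyclin D3 RNA was the most abundant D cyclin RNA in both cell types. Ccnd3 (ENSMUSG00000034165.11, chr17:47505051-47599691, plus strand) was 48.2, 42.8 and 57 adjusted TPM in female B cells and 45.4, 65.4 and 37.6 in male B cells. T cell values were 86.0, 81.1 and 87.8 in females and 89.0, 87.0 and 92.5 in males. The B cell libraries were the more scattered, with an SD of 10.1 around a mean of 49.4, against an SD of 3.76 around 87.2 in T cells (n = 6 each). The T cell mean was 1.77 times that of B cells (log2 fold change -0.83, SE 0.11, adjusted p = 2.33e-05). Exons of Ccnd3 overlap those of Bysl on the opposite strand, whose means were 5.66 in B and 7.29 in T cells. Whether reads were counted by strand is not stated.

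RNA of cyclin D1, which many solid tissues use, was the rarest of the 3. Ccnd1 (ENSMUSG00000070348.4, chr7:144929931-144939925, minus strand) was at 1.81, 4.13 and 2.30 adjusted TPM in female B cells and 1.96, 2.55 and 2.17 in male B cells. In T cells it was 0.330, 0.380 and 1.09 in females and 0.514, 0.539 and 0.825 in males. The ratio of the means was 4.06, and the log2 fold change was 1.10 with 1 added to each value and 1.90 with 0.1 added. Female B cell 2, the highest, also had the highest Mki67 (14.8) of the 12 libraries. The 5 myeloid markers summed to 10.4 to 14.8 in B cells against 2.66 to 5.83 in T cells. Most of that sum was Lyz2, at 6.82 to 11.1 and 0.0335 to 2.52, and Cd68 was also higher in every B cell library (1.53 to 1.77 against 0.495 to 1.21), whereas Itgam, Csf1r and S100a8 overlapped between the cell types. Of the 5 stromal and endothelial markers, Col1a1, Col1a2 and Pdgfrb were at or below 0.00925 in every library, Cdh5 was 0.256 to 0.504 in B cells against 0.0774 to 0.226 in T cells, and Pecam1 was 84.2 to 100.6 and 87.5 to 97.0. The part of such cells in the Ccnd1 values was not tested. Exons of Ccnd1 overlap those of LTO1 on the opposite strand over up to 818 bases, and no value was found under that name. Whether reads were counted by strand is not stated.

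Within the D cyclin sum, which was 74.1 ± 11.4 adjusted TPM in B cells and 159 ± 10.0 in T cells (SD, n = 6), the makeup also differed. Ccnd3 made up 66.3% ± 4.15 of the sum in B cells and 54.9% ± 1.94 in T cells, Ccnd2 30.3% ± 3.64 and 44.7% ± 1.90, and Ccnd1 3.42% ± 1.33 and 0.380% ± 0.166 (SD, n = 6). The ratio of Ccnd2 to Ccnd3 is free of any scaling that is the same for all genes of a library. It was 0.338 at the lowest, 0.456 at the median and 0.575 at the highest in B cells, and T cells had 0.723, 0.833 and 0.896. The log2 ratio was lower in B cells by 0.84, that is, -1.14 ± 0.26 against -0.30 ± 0.11 (SD, n = 6), with p = 0.00216 in an exact two-sided permutation test. That is the smallest p that 6 against 6 libraries allow, and the test takes the libraries as independent. T cells thus carried more Ccnd2 and Ccnd3 RNA on the deposited scale, and relatively more of Ccnd2. Protein was not measured.

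**Figure D2:**
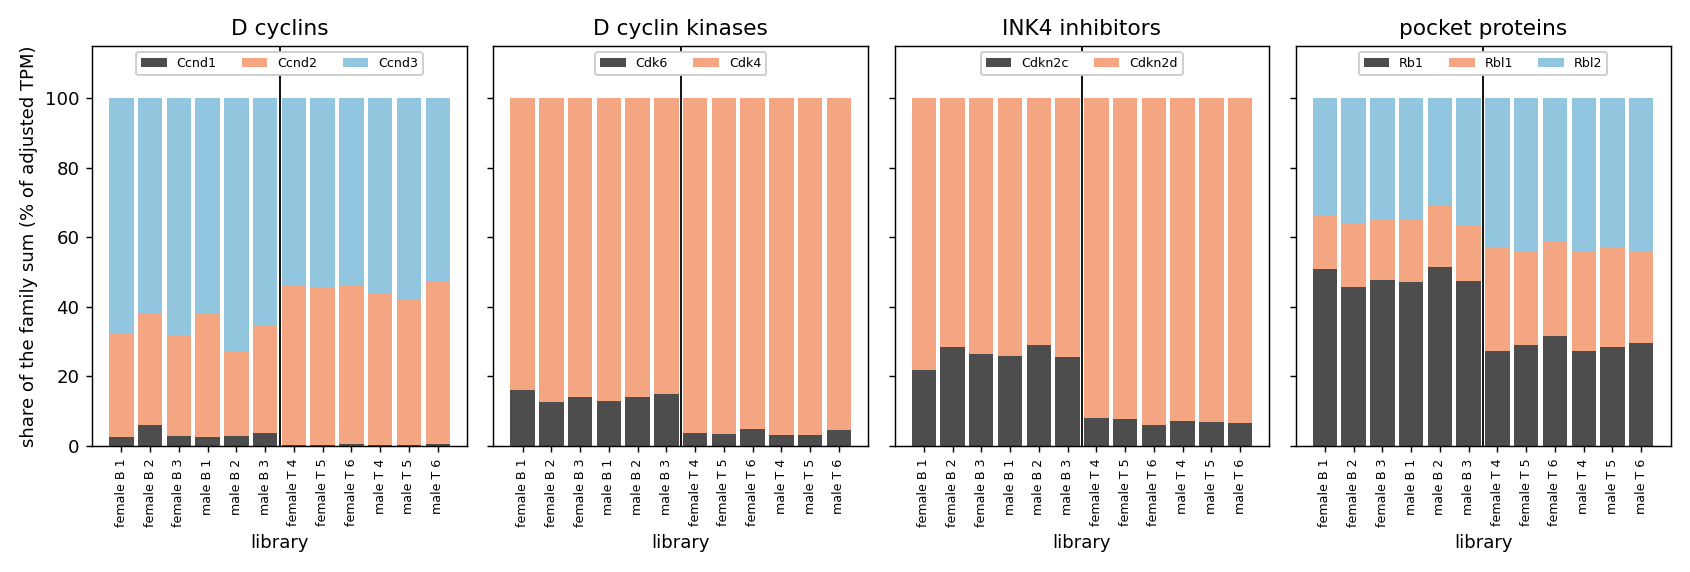
Share of each gene in the summed adjusted TPM of its family (percent, stacked bars), for the D cyclins, their kinases, the INK4 inhibitors and the pocket proteins, 1 bar per library with B cells left of the line. Ccnd1, Cdk6, Cdkn2c and Rb1 all took larger shares in each B cell library than in any T cell library.

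Of the kinases, CDK4 RNA was near in level in the 2 cell types and CDK6 RNA was not. Cdk4 (ENSMUSG00000006728.7, chr10:127063534-127067920, plus strand) had 46.4 adjusted TPM at the lowest, 52.4 at the median and 61.7 at the highest in B cells, and T cells had 51.4, 57.6 and 61.1. The ranges overlapped (log2 fold change -0.11, SE 0.07, adjusted p = 0.161). Without male B cell 1, its highest B cell library, the adjusted p was 0.0429 (log2 fold change -0.16). Male B cell 1 also had the highest sum of the 4 erythroid markers, 236 against 3.52 to 124 in the other B cell libraries. In T cells that sum was 2.75 to 54.8. Cdk4 was 52.0 in male B cell 3, where the sum was 124, and 55.8 in male T cell 5, where it was 54.8. The part of such cells in the Cdk4 values was not tested. With all totals set equal the sign turned, to 0.27 (adjusted p = 0.25). Exons of Cdk4 overlap those of Tspan31 on the opposite strand, whose means were 13.1 in B and 7.84 in T cells. Whether reads were counted by strand is not stated.

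Cdk6 (ENSMUSG00000040274.6, chr5:3341485-3531008, plus strand) stood at 8.97, 7.86 and 8.62 adjusted TPM in female B cells and 9.13, 8.22 and 9.13 in male B cells. In T cells it was 2.22, 1.95 and 2.66 in females and 2.00, 1.86 and 2.86 in males. B cells had 3.83 times the T cell mean (log2 fold change 1.57, SE 0.09, adjusted p = 2.34e-09). The summed kinase level was 61.5 ± 5.23 in B cells and 59.3 ± 4.14 in T cells (SD, n = 6), of which Cdk6 made up 14.1% ± 1.32 and 3.82% ± 0.717. The ratio of Cdk6 to Cdk4 ran from 0.145 to 0.193 in B cells and from 0.0327 to 0.0518 in T cells. On the log2 scale it was -2.61 ± 0.16 and -4.67 ± 0.27 (SD, n = 6), a difference of 2.07 with p = 0.00216, again the smallest the exact two-sided permutation test allows.

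RefSeq promoter windows of 300 bases (GRCm38.p6, 250 before the start of transcription and 50 after) were at hand for 7 of the 10 members, as 10 windows, and were searched on both strands for the E-box CACGTG, bound by MYC among others, the E2F motif TTTNNCGC, the FOXO motif GTAAACA and the cyclic AMP response element TGACGTCA. Ccnd1, Ccnd2 and Rb1 had no window. The pair of kinases and cyclin D3 are shown because their windows held matches upstream of the start, with the matching letters in capitals and all read along the plus strand. In the Cdk4 window (chr10:127063285-127063584) the E-box occurred 4 times, all within the stretch chr10:127063351-127063533 printed here, and 7.15% of the 32851 windows of all genes hold at least 1. The Cdk6 stretches are chr5:3343661-3343690 with 1 E-box and chr5:3343683-3343714 with 1 E2F match, a motif in 5.17% of all windows. The Ccnd3 stretch is chr17:47504801-47504826, with 1 FOXO match in the reverse orientation, a motif in 3.65%. The Cdkn2c E-box lay after the start, and the windows of Cdkn1a, Cdkn1b and Cdkn2d held none of the 4 motifs. A match is a description of the letters only, and binding was not measured.
Cdk4 E-box: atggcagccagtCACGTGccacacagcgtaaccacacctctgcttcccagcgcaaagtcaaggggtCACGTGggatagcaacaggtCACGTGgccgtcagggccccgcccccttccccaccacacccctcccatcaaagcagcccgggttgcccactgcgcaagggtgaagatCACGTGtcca
Cdk6 E-box: gttctgcggcccCACGTGggtgaacccccg
Cdk6 E2F: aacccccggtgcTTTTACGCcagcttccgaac
Ccnd3 FOXO: ggtctacTGTTTACttcctgggcagc

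The 2 INK4 inhibitors differed in opposite directions. Cdkn2d (ENSMUSG00000096472.1, chr9:21288410-21291407, minus strand), encoding p19, had 15.4 adjusted TPM at the lowest, 17.7 at the median and 19.2 at the highest in B cells, and T cells had 30.9, 37.3 and 42.9. T cells had 2.12 times the B cell mean (log2 fold change -1.04, SE 0.07, adjusted p = 4.52e-08). Cdkn2c (ENSMUSG00000028551.9, chr4:109660876-109667189, minus strand), encoding p18, had 5.19, 6.44 and 6.73 in B cells, while T cells had 2.02, 3.12 and 3.22. Here B cells had 2.18 times the T cell mean (log2 fold change 0.91, SE 0.09, adjusted p = 1.61e-06). Cdkn2c thus made up 26.2% ± 2.5 of the INK4 sum in B cells and 7.09% ± 0.718 in T cells (SD, n = 6), and the sum itself was 23.8 ± 1.60 and 40.2 ± 4.54 adjusted TPM. The other INK4 genes, Cdkn2a and Cdkn2b, were at most 0.00118 and 0.268 in any library and were under the filter.

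Of the CIP/KIP inhibitors, p27 RNA was the most abundant of the 10 and p21 RNA the scarcest. Cdkn1b (ENSMUSG00000003031.9, chr6:134920401-134925513, plus strand) had 80.9 adjusted TPM at the lowest, 87.5 at the median and 95.9 at the highest in B cells, and T cells had 125, 149 and 152. T cells had 1.65 times the B cell mean (log2 fold change -0.71, SE 0.07, adjusted p = 8.06e-07). With all totals set equal the log2 fold change was -0.33 (adjusted p = 0.161) and the call was lost. Cdkn1a (ENSMUSG00000023067.8, chr17:29090976-29100727, plus strand) had 0.163, 0.230 and 0.330 in B cells. In T cells it was at most 0.00344, with upper interval bounds of at most 0.00888, so it was close to the lowest values in the table and was not tested. The remaining CIP/KIP gene, Cdkn1c, was 0.0472 to 0.145 in B cells and 0.329 to 0.776 in T cells, also under the filter.

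Rb1 (ENSMUSG00000022105.6, chr14:73183673-73325822, minus strand) had 41.7 adjusted TPM at the lowest, 45.7 at the median and 50.9 at the highest in B cells, and T cells had 25.3, 25.8 and 31.3. B cells had 1.69 times the T cell mean (log2 fold change 0.74, SE 0.07, adjusted p = 7.39e-07). Its relatives among the pocket proteins lay the other way, with Rbl1 (p107) at 16.2 ± 0.814 in B cells against 26.2 ± 1.13 in T cells. Rbl2 (p130, the pocket protein of resting cells) was at 32.5 ± 2.28 and 40.7 ± 1.66 (SD, n = 6). The log2 fold changes were -0.66 (SE 0.05, adjusted p = 9.35e-08) and -0.32 (SE 0.06, adjusted p = 0.000268). With all totals set equal Rbl1 was at -0.30 (adjusted p = 0.186) and Rbl2 turned to 0.06 (adjusted p = 0.825), neither past the threshold. The pocket protein sum was 94.5 ± 3.98 and 93.9 ± 4.23, and Rb1 made up 48.4% ± 2.25 of it in B cells and 28.8% ± 1.61 in T cells. Exons of Rb1 overlap those of Lpar6 and Rcbtb2 on the opposite strand, whose means were 22.3 and 31.6 in T cells against 12.7 and 9.76 in B cells. Whether reads were counted by strand is not stated.

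Placed in order, the 10 genes ran in B cells from Cdkn1b (mean 87.2 adjusted TPM) through Cdk4 (52.8), Ccnd3 (49.4), Rb1 (45.8), Ccnd2 (22.3), Cdkn2d (17.6), Cdk6 (8.65), Cdkn2c (6.24) and Ccnd1 (2.49) to Cdkn1a (0.240). Cdk4, Ccnd3 and Rb1 did not separate: Cdk4 exceeded Ccnd3 in 3 of 6 libraries and Ccnd3 exceeded Rb1 in 3 of 6. The ranges of Ccnd2 and Cdkn2d also overlapped, with Ccnd2 higher in 5 of 6. In T cells the order was Cdkn1b (144), Ccnd3 (87.2), Ccnd2 (71.3), Cdk4 (57), Cdkn2d (37.3), Rb1 (27.1), Cdkn2c (2.86), Cdk6 (2.26), Ccnd1 (0.612) and Cdkn1a (0.00192). Overlapping neighbours there were Ccnd3 and Ccnd2, though Ccnd3 was higher in 6 of 6 libraries, Cdkn2d and Rb1 (5 of 6), and Cdkn2c and Cdk6 (4 of 6). Ccnd2 and Ccnd3 thus both stood above Cdk4 in T cells, whereas in B cells Ccnd2 stood below it in all 6 libraries.

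The summed D cyclins were 2.26 to 4.14 times the summed INK4 inhibitors in B cells (median 2.99) and 3.27 to 4.95 times in T cells (median 3.82), so the ranges overlapped. Against Cdkn1a and Cdkn1b the D cyclin sum was 0.711 to 0.996 times in B cells (median 0.834) and 1.06 to 1.21 times in T cells (median 1.08), without overlap. The mean log2 ratios differed by -0.36 and -0.40, B minus T cells, and are given as a description without a test. The sums of the D cyclins, of the INK4 inhibitors and of Cdkn1a and Cdkn1b were each higher in T cells on the deposited scale. Single genes within them, namely Ccnd1, Cdkn2c and Cdkn1a, were higher in B cells.

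**Figure D3:**
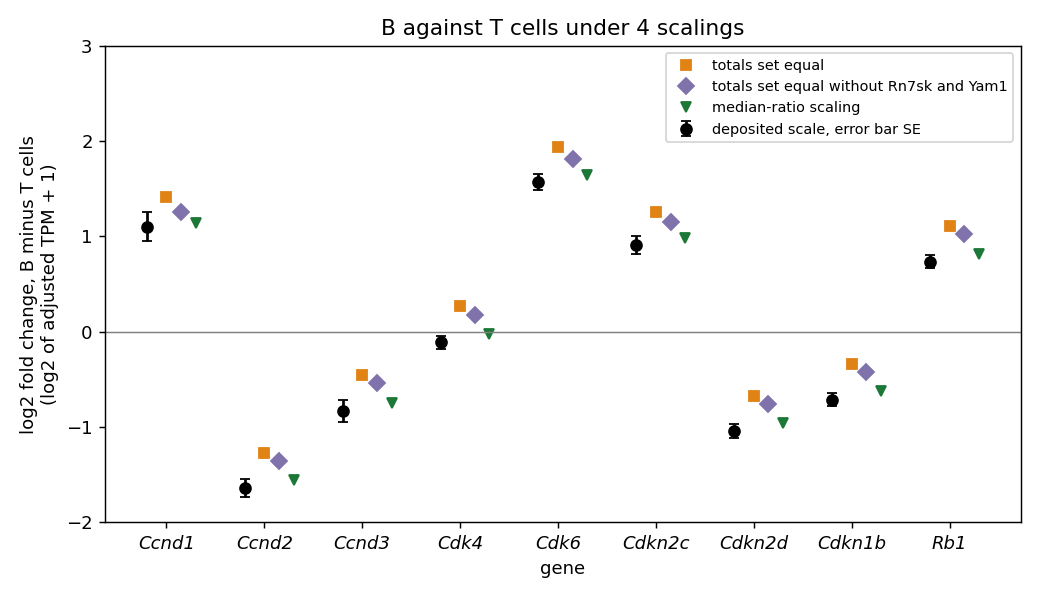
Log2 fold change (B minus T cells, log2 of adjusted TPM + 1) of the 9 tested members on the deposited scale (black, with SE) and under 3 other scalings of the libraries. Setting all totals equal moved every gene up, so Cdk4 went from -0.11 to 0.27 and Cdkn1b from -0.71 to -0.33, while the signs of the other 8 held.

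The level of all genes together shifts with the scaling: the median log2 fold change over the 12520 genes was -0.09 as deposited, 0.25 with all totals set equal, 0.17 with totals set equal without Rn7sk and Yam1, and -0.01 with median-ratio scaling. Of the genes called, 3926 were higher in B and 5208 in T cells as deposited, and 4812 and 1985 with totals set equal. Relative to these medians Cdk4 lay close to the middle of all genes each time (-0.11 as deposited, 0.27, 0.18 and -0.02). Ccnd2, Ccnd3 and Cdkn2d stayed higher in T cells and Cdk6, Cdkn2c and Rb1 higher in B cells under all 3, with adjusted p at most 0.0422.

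Between females and males, no member differed by the test. None was past the threshold in B cells, where limma called 18 genes in all (0.144%), or in T cells, where it called 13 (0.104%). The members' log2 fold changes, female minus male, ran from -0.12 to 0.17 in B cells, while those in T cells ran from -0.17 to 0.05, with SEs of 0.10 to 0.21, and without pairing no unadjusted p was under 0.05 (smallest 0.372 and 0.14). Cdkn2d had the lowest in T cells, with 36.7, 37.9 and 30.9 adjusted TPM in females and 40.3, 42.9 and 35.5 in males. These ranges overlapped, and Cdkn2d was lower in the female library of all 3 same-numbered pairs (limma with the number as a block, unadjusted p = 0.0444, adjusted p = 1.00). Ccnd3 and Cdk4 were also lower in females, and Cdkn1b and Rb1 higher, in all 3 pairs, with unadjusted p of 0.309 or more. The difference between the sex effects of B and T cells passed for 0% of genes, with 295 genes and no member at an unadjusted p under 0.05. An unexplained number in the labels follows sex within each cell type, so number and sex cannot be told apart.

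Among the T cell libraries, those numbered 6 held the extremes of several members. Cdk6 was 2.66 and 2.86 adjusted TPM in them and 1.86 to 2.22 in the other 4, and Rb1 was 31.3 and 29.0 against 25.3 to 26.2. Ccnd1 was 1.09 and 0.825 against 0.330 to 0.539. Cdkn2c was lower, at 2.02 and 2.48 against 3.06 to 3.22, and so was Cdkn2d, at 30.9 and 35.5 against 36.7 to 42.9. In all, 6 of the 9 tested members were above and 2 below both other libraries of the same sex in females and males alike, and Cdk4 was mixed, beside 44.5% of all tested genes that were beyond both in the same direction. Ikzf2 was 13.4 and 11.3 in the libraries numbered 6 against 1.07 to 2.07, and Ctla4 was 13.2 and 11.4 against 1.57 to 2.15. Mki67 was 0.993 and 0.591 there against 0.210 to 0.343. Their part in the members' values was not tested. Without both libraries, limma called 8 members between B and T cells, beside 9233 of the 12520 genes. Ccnd1 is among the 8 as a description only, since it passed the filter through B cells. The log2 fold change of Cdk6 was then 1.68, of Cdkn2c 0.79, of Ccnd1 1.25, of Rb1 0.81 and of Cdkn2d -1.12.

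**Figure D4:**
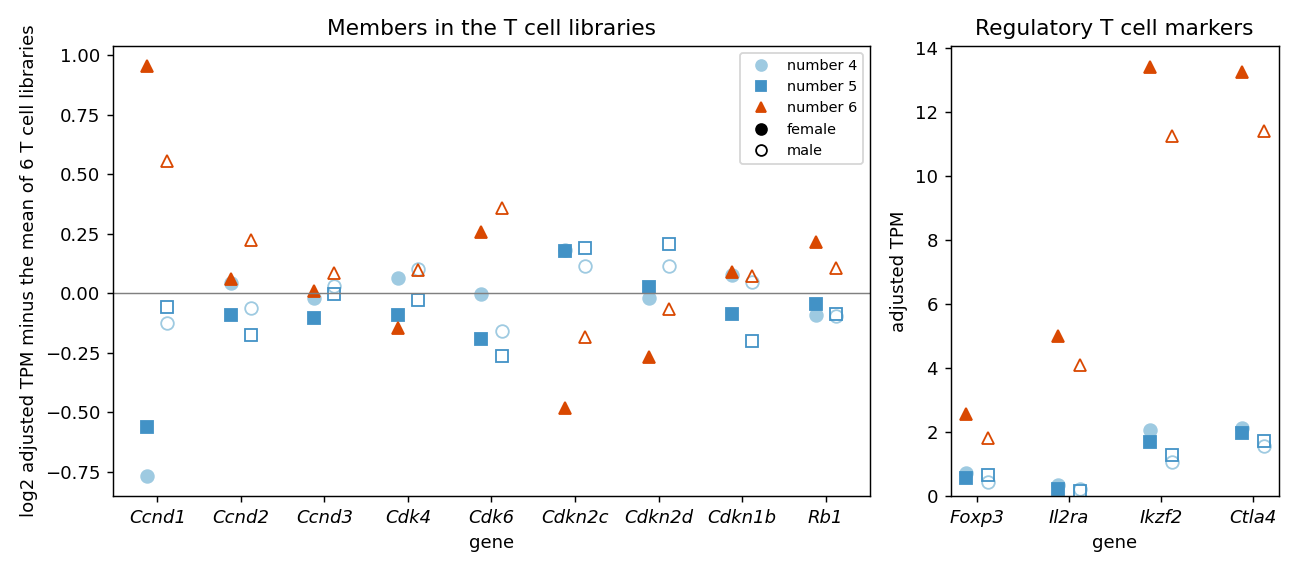
Left, log2 adjusted TPM of the 9 tested members in each T cell library minus the mean of the 6 libraries, and right, adjusted TPM of 4 markers of regulatory T cells, by library number (colour and shape) and sex (filled female, open male). The libraries numbered 6 lay highest for Ccnd1, Cdk6 and Rb1, lowest for Cdkn2c and Cdkn2d, and highest for the 4 markers.

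The partners and targets of these genes were described from 10 lists with 72 genes. Of these, 66 passed the filter, 26 were higher in B cells, 26 were higher in T cells and 14 did not pass the test. The median log2 fold change over all 66 was 0.01, against -0.09 over all genes. Of the 66, 8 passed the filter only through the cell type where they were high, among them Ccna2, E2f1, E2f3, Cdc6 and Usp2. Of the other 58, 19 were higher in B and 25 in T cells, beside 31.4% and 41.6% of all genes, shares to be set beside each count by list. The median log2 fold change of these 58 was -0.07, near that of all genes. The rule named the called genes of largest change or highest level in each list.

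The other G1 cyclins and CDK partners were split, with 3 of 7 that passed in both cell types higher in B cells and another 3 in T cells. Ccna2, cyclin A of S phase, was 5.39 ± 1.63 adjusted TPM in B cells and 0.432 ± 0.0414 in T cells (SD, n = 6). Ccne2 was 2.88 and 1.17, and Cdk2, the kinase of cyclins E and A, was 19.0 and 14.2. E2F and DP factors that passed in both cell types were higher in B cells for 3 of 6 and lower for 2. Among the activating E2Fs, E2f2 was 22.0 ± 3.49 in B cells against 5.45 ± 0.447 in T cells, as E2f3 was 4.41 ± 0.312 against 0.968 ± 0.268 (SD, n = 6). E2f4, a repressive partner of p130, was 20.8 and 16.9, and the dimer partner Tfdp1 was 11.6 in B and 16.3 in T cells, a call lost with all totals set equal (log2 fold change -0.10, adjusted p = 0.664). Of the MuvB core, which joins p130 in the complex of quiescent cells, 3 of 5 were higher in T cells, among them Rbbp4 (73.3 and 88.2) and Lin54 (9.27 and 11.8), and neither was past the threshold or kept its sign with all totals set equal.

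S phase targets of E2F did not move one way, with 5 of 11 that passed in both cell types higher in B cells and another 5 in T cells. Rrm2, a subunit of ribonucleotide reductase, was 4.97 in B and 1.18 in T cells, and Cdc6, which loads the replicative helicase, was 1.38 and 0.205. Pcna, the sliding clamp, was 88.3 ± 10.8 in B and 146 ± 21.7 in T cells (SD, n = 6), and the helicase subunit Mcm7 was 28.4 and 33.1. With all totals set equal, Mcm7 turned to 0.15 on the log2 scale and Pcna was at -0.34, neither past the threshold. The 4 proliferation markers stood higher in each B cell library than in any T cell library, with Mki67 at 5.98 to 14.8 against 0.210 to 0.993 and Top2a at 11.6 to 23.5 against 2.65 to 4.04. Of all genes tested, 53.9% did not overlap, in either direction. Mki67, Ccnb1 and Cdk1 were under 1 in every T cell library and passed the filter only through the B cells. Neither their calls nor their separation are therefore support, and only Top2a passed in both cell types. Among the B cell libraries, Cdk6 was lowest (7.86) in female B cell 2, where Mki67 was highest. The part of cycling cells in the members' values was not tested.

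Genes that control turnover of D cyclins and p27 were higher in B cells for 5 of 9 that passed in both cell types and in T cells for 2. Fbxo4, an F-box protein of cyclin D1 turnover, was 9.86 and 5.62, Uhmk1, a kinase that acts on p27, was 50.4 and 42.6, and the deubiquitinase Usp2, which stabilises cyclin D1, was 0.0587 and 0.968 in B and T cells. Of the upstream transcription factors, 2 of 9 were higher in B cells and 3 in T cells. Bcl6, a repressor known to act on Ccnd2 in B cells, was 28.5 ± 5.39 in B and 6.46 ± 0.489 in T cells (SD, n = 6), and Klf4 was 6.44 ± 3.96 and 2.21 ± 1.37. The part of Bcl6 in the Ccnd2 values was not tested. Klf4 overlapped between the cell types (2.77 to 13.9 and 0.730 to 4.41), and its adjusted p in limma reached 0.0915 among the alternatives. Of 8 tested targets of p53 other than Cdkn1a, limma called 0 in favour of B cells and 5 in favour of T cells, beside 31.4% and 41.6% of all genes. Bbc3, encoding the apoptosis factor PUMA, was 1.41 and 7.70, Ccng1 was 42.3 and 83.3, and Trp53inp1 was 85.5 and 127, a call lost with all totals set equal (log2 fold change -0.18, adjusted p = 0.471). Cdkn1a itself lay the other way among the p53 targets, at 0.240 and 0.00192, though its level was under the filter.

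**Figure D5:**
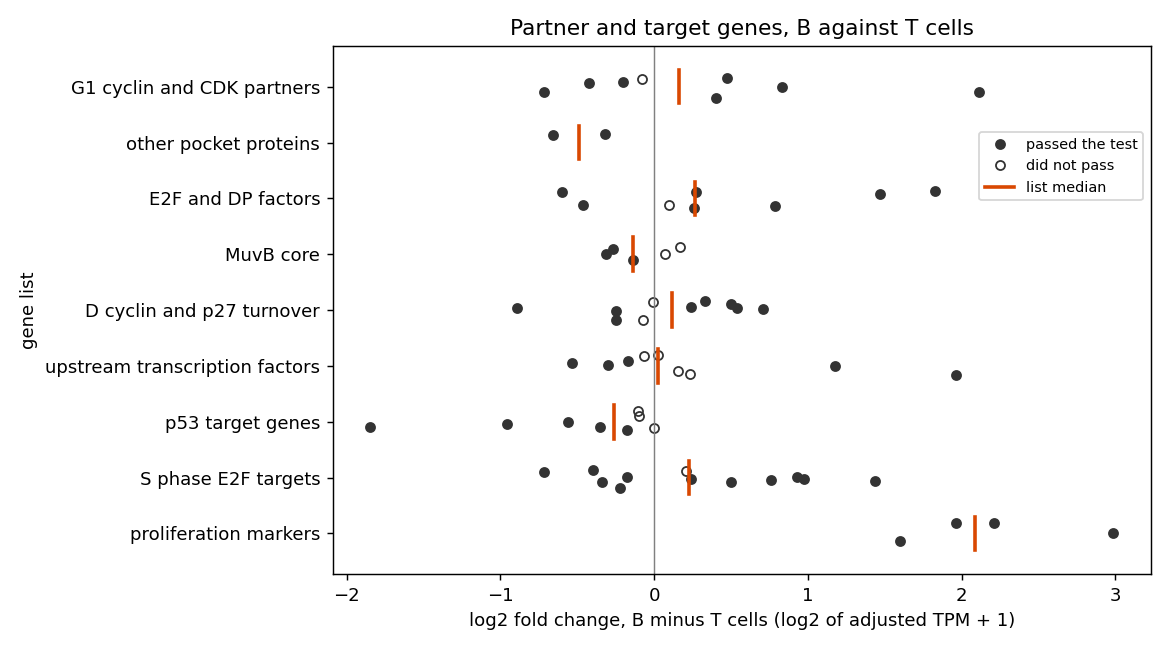
Log2 fold change (B minus T cells, log2 of adjusted TPM + 1) of each tested gene in the partner and target lists, filled where the gene passed the test, with the list median in orange. The 4 proliferation markers, of which only Top2a passed the filter in both cell types, lay at 1.60 to 2.99. The p53 targets and both other pocket proteins lay at or below 0, and the remaining lists spread to both sides.

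Over the 12 libraries, the genes outside the members whose log2 profiles were nearest to that of Ccnd2 were Klhl9, Ifit2 and Slfn1 (Pearson r 0.996, 0.996 and 0.995). Those nearest to Ccnd3 were Slc35e2, Pik3ip1 and Sdccag3 (r 0.989, 0.970 and 0.963), and those nearest to Cdkn1b were Cers5, Ranbp10 and Phf3 (r 0.987, 0.984 and 0.984). Klhl9 was 19.7 in B and 62.5 in T cells, and Pik3ip1 27.8 and 104. These correlations share the libraries and the split into B and T cells, and are descriptions.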

How the data were processed

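The authors deposited 1 table of adjusted TPM per gene and library, a length-corrected signal rescaled between libraries, with a point value and lower and upper bounds. The submitters' processing notes name Trim Galore, FastQC, STAR and the mm10 genome. The quantifier, the adjustment and the level of the bounds are not given in the sources used here, and depth is unknown. Spike-ins were not analysed here.

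Point values were tested as log2(value + 1) with limma 3.58.1 (R 4.3.3), with a mean-variance trend and 4 group means, over the 12520 of 41128 genes with a value of at least 1 in at least 3 libraries, and p-values were adjusted by the Benjamini-Hochberg method over these. The fit was tested on simulated data. The labels call the 3 libraries of a group biological replicates. Ratios of 2 single genes were tested by exact two-sided permutation of 6 against 6 libraries (924 arrangements), and both had the same p after adjustment over the 2. Ratios of sums over members were left untested, although a test had been planned. Of each list, genes past the threshold were named if among the 2 of largest absolute change or the 2 of highest mean level. Genes nearest in profile to Ccnd2, Ccnd3 and Cdkn1b were the 3 of highest Pearson r whose log2 values averaged at least 3. Members and lists were chosen with earlier results of these data known.

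Same-numbered female and male T cell libraries deviated together (r 0.52 to 0.72), so the numbers were taken to pair them. The pairing was used only in the block fit of the sex comparisons. The B against T fit and the permutation test took all 12 libraries as independent, so their p-values may be too small. Coordinates are from GENCODE M21, which uses mm10, and promoter windows from RefSeq (GRCm38.p6), where 7 of the 10 members had an entry. Alternatives were the pseudocount, filter, scaling, bounds, trend, sex, replicate block and leaving out each library. Without both T cell libraries numbered 6 and rescaling without Rn7sk and Yam1 were chosen after seeing the data. One marker gene is not reported here.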

Additional observations from a re-analysis of the deposited data

Results flagged for a closer look

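One value of the members stood far from the others of its cell type. Ccnd1 in female B cell 2 was 4.13 adjusted TPM, and its gap to the next highest B cell library took 67.9% of the range of the 6, past the limit of 62.5% that Dixon's test sets for 6 samples. A total of 20 sets of 6 values were looked at, and chance flags about 1 in 20. Without female B cell 2 the log2 fold change of Ccnd1 between B and T cells was 0.98, against 1.10 with it. No member's sex effect turned between B and T cells in every library.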

How the results depend on the processing

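Of the 8 members that passed the filter in both cell types, 7 were called between B and T cells, beside 73.0% of all genes. The counts that follow also hold Ccnd1 where it was tested, though it passed only through B cells and is no support. With it, 8 members were called on the main settings and 7 to 9 under all alternatives but 1. That alternative, an added absolute log2 fold change of at least 1, gave 4, beside 21.6% of all genes. The counts were 8 to 9 when 1 library was left out (9 without male B cell 1, where Cdk4 joined), 7 with all totals set to 1000000, where Cdkn1b fell out at -0.33, 7 at a minimum of 5, where Ccnd1 was not tested, and 9 with no filter, where limma called Cdkn1a. With no filter, limma called 10985 genes between the sexes in B cells, against 18 with it. The 8 calls were each made in females only and in males only. Cdk4 reversed to 0.27 with totals set equal and to 0.18 with totals set equal without Rn7sk and Yam1. Named partners that reversed with totals set equal were Rbl2 (0.055), Lin54 (0.036), Rbbp4 (0.11) and Mcm7 (0.15), and without Rn7sk and Yam1 they were Rbbp4 (0.026) and Mcm7 (0.067). The cause was not tested.

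With 3 against 3 libraries the exact permutation test cannot go below 0.1: in females only and males only the difference in the log2 ratio of Ccnd2 to Ccnd3 was -0.87 and -0.81, and that of Cdk6 to Cdk4 was 2.00 and 2.13. When 1 library was left out these ran from -0.91 to -0.75 and from 2.02 to 2.15, and the ratios of sums from -0.45 to -0.28 (INK4) and from -0.45 to -0.35 (CIP/KIP).

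With the replicate block, 0 members were called in either sex comparison, as in every other alternative. The B cell numbers did not pair (r -0.34 to -0.04). Depth is unknown. Cdkn1a lies too low for a fold change, and that of Ccnd1 depends on the pseudocount.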
